A study of Mus musculus with 2 samples.

Results

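The fatty acid desaturases and elongases described here are the 9 genes Scd1, Scd2, Fads1, Fads2, Elovl1, Elovl2, Elovl3, Elovl5 and Elovl6. They were read from every probe set that the platform annotation gives to one of these symbols, 17 of 22690 probe sets on the array. Liver RNA came from mice lacking apolipoprotein E, a strain prone to high plasma cholesterol and atherosclerosis, and was hybridised to Affymetrix oligonucleotide arrays. Both groups lacked Apoe and ate a high-fat diet. The array titled orujo stands for a diet enriched with the oil's unsaponifiable fraction (sterols, triterpenes, hydrocarbons and other compounds outside the triglycerides), and the array titled olive for a diet enriched with the oil itself; the titles name the arrays below. The comparison addresses the question in the series title, whether kinds of olive oil differ in their effect on liver transcripts. The sources used here do not give sex, age, strain background, feeding time, fat composition or how many animals stand behind each array.

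Desaturases put double bonds into fatty acyl-CoA and elongases add carbon pairs to it, both in the membrane of the endoplasmic reticulum. Stearoyl-CoA desaturases make oleate, the main fatty acid of olive oil, and palmitoleate from saturated precursors. The Fads and Elovl enzymes of the polyunsaturated branch turn dietary linoleate and α-linolenate into arachidonate and longer products, while other elongases lengthen saturated and monounsaturated chains. In liver, insulin, the liver X receptors and the SREBP-1c factor are known to raise transcription of many of these genes, and dietary polyunsaturated fat is known to lower it.

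There was 1 array per diet and no replicate, so each ratio below compares 2 arrays, carries no error between animals and has no test. The number of arrays limits the precision. Intensities have arbitrary units, and a probe set is called measured when it exceeded a floor of 35.6, the pooled median intensity, on both arrays. This held for 10462 probe sets, whose log2 ratio, the orujo array minus the olive array, had a median of −0.01 and an SD of 0.43. The only repeated measurement is a gene read by different probe sets of the same RNA. Over 1453 genes with exactly 2 measured probe sets, their log2 ratios differed from each other with an SD of 0.44, equivalent to a noise SD of 0.31 for 1 probe set. The single probe set of Apoe gave an intensity of 99.6 on the orujo array and 102.7 on the olive array. Whether that probe set lies inside the deletion was not determined, so it checks neither label.

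Scd1 had higher signal on the orujo array by 2.22-fold and 3.69-fold in its 2 probe sets, and Fads2 by 1.40-fold and 1.57-fold. Elovl5 was higher by 1.62-fold in one probe set and by 1.11-fold in the other. Fads1, Elovl2, Elovl3, Elovl6 and the measured probe set of Scd2 differed by at most 1.12-fold between the arrays, and the 3 probe sets of Elovl1 had log2 ratios between −0.23 and 0.00. Of the 17 member probe sets, 14 were measured. Among these, 2 were at least 2-fold higher, where 1.33% of all measured probe sets were, and both belong to Scd1. At least 2-fold lower were 0 of the 14, where 1.08% of all measured probe sets were. At the lower limit of 1.5-fold, 4 of 14 were higher, against a background of 5.79%, and 0 were lower, against 5.66%. Positive log2 ratios were found in 11 of the 14, against 48.3% of all measured probe sets, and the members' median was 0.16. Without Scd1 the median over 12 probe sets was 0.12, and 0 of them reached 2-fold. In liver tissue, fewer cells of a type and less RNA per cell cannot be told apart.

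**Figure D1:**
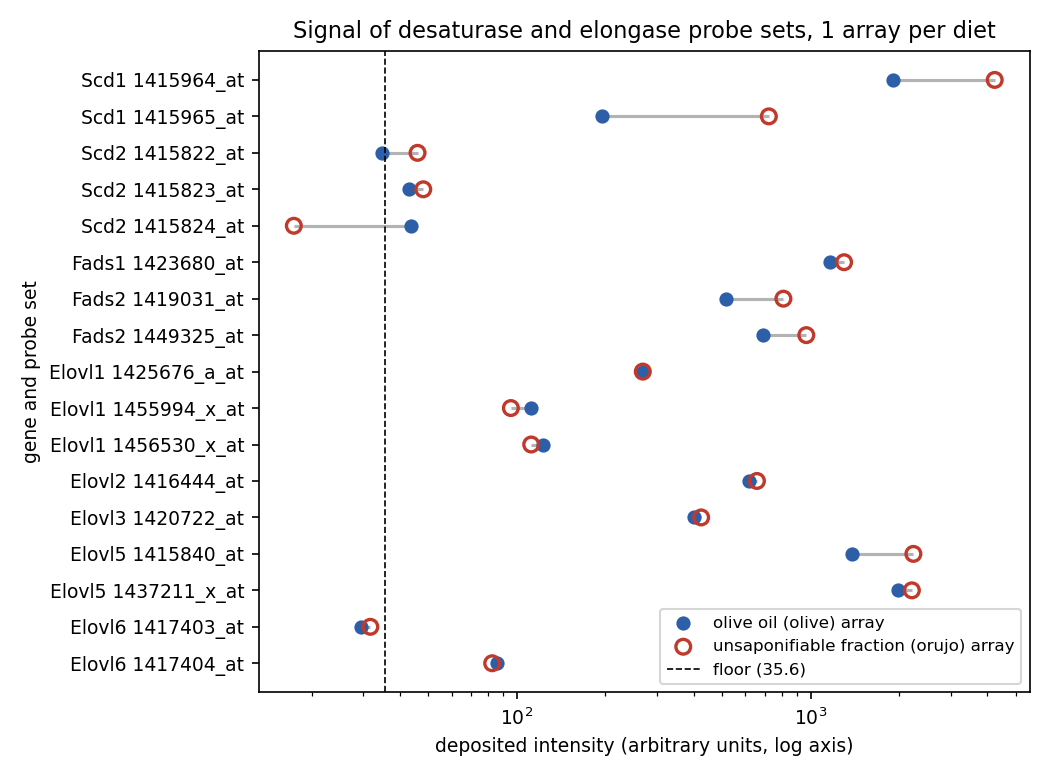
Deposited intensity (arbitrary units, log axis) of each of the 17 member probe sets on the olive array (filled blue) and the orujo array (open red), with the floor of 35.6 dashed. The gaps are widest for the 2 Scd1 probe sets and for a Scd2 probe set that crosses the floor, and positions of different probe sets along the axis do not compare transcript levels.

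Of the stearoyl-CoA desaturases, Scd1 lay far above the floor and Scd2 near it. Scd1 (probe set 1415964_at), the main stearoyl-CoA desaturase of liver, had an intensity of 4236.9 on the orujo array and 1906.9 on the olive array. Its other probe set (1415965_at) read 721.1 and 195.3. Both put the orujo array higher, but by unequal amounts: the log2 ratios were 1.15 and 1.88, a gap of 0.73. That gap is larger than the SD of 0.44 between paired probe sets, so both probe sets share a direction between these arrays but not a size. They read the same RNA, so neither direction nor size is settled between the diets. Among all 10462 measured probe sets these ratios ranked 88 and 24 from the highest. Under quantile normalization the ratio of 1415964_at was 0.99, just under 2-fold, and it passed 2-fold under the other settings tried.

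Scd2 encodes a second stearoyl-CoA desaturase, best known from brain and from early development. Its 3 probe sets lay near the floor and did not share a direction. Intensities were 45.9 on the orujo array and 34.6 on the olive array for 1415822_at, 48.0 and 43.0 for 1415823_at, and 17.4 and 43.6 for 1415824_at. The first exceeded the floor only on the orujo array, at least 1.29-fold higher there, and the last only on the olive array, at least 1.22-fold higher there. The measured one gave a log2 ratio of 0.16. With the floor lowered to the 25th percentile, 11.8, the 3 log2 ratios were 0.41, 0.16 and −1.33, so no direction can be given for Scd2. In the RefSeq gene order of GRCm38.p6, Scd3, Scd2, Scd4 and Scd1 stand side by side on chromosome 19. These genes are close paralogs, and how far their probe sets share signal was not tested. Scd3, which is not a member, read 16.9 and 19.1, below the floor on both arrays.

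Fads2 encodes the desaturase of the entry step in polyunsaturated fatty acid synthesis. Its 2 probe sets agreed most closely among the 3 member genes with 2 measured probe sets. Intensities were 808.3 on the orujo array and 516.2 on the olive array for 1419031_at, and 967.3 and 690.3 for 1449325_at. The log2 ratios of 0.65 and 0.49 differ by 0.16, and each exceeds the noise of 1 probe set (0.31). Of all measured probe sets, 95.3% and 91.1% had lower ratios, so ratios of this size are not rare on these arrays. Fads1, the desaturase of the later step, is the gene next to Fads2. Its 1 probe set (1423680_at) read 1300.8 and 1164.6, a log2 ratio of 0.16, within the noise of a single probe set. Fads3, the other neighbour and no member, read 3.6 on both arrays.

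Elovl5, the elongase that works on the products of Fads2, gave a divided picture. Its probe set 1415840_at had an intensity of 2239.8 on the orujo array against 1381.2 on the olive array, a log2 ratio of 0.70. Its other probe set, 1437211_x_at, read 2213.0 against 1987.8, a log2 ratio of 0.15. The suffix of the second marks sequence that can be shared with other transcripts. The gap of 0.54 exceeds the SD of 0.44 between paired probe sets. Under quantile normalization the second ratio was 0.01 and the first 0.60. Elovl2, which extends the longest polyunsaturated chains toward docosahexaenoate, read 656.8 and 617.2, a log2 ratio of 0.09. Over the 6 probe sets of the polyunsaturated branch (Fads1, Fads2, Elovl2, Elovl5), 6 of 6 had positive log2 ratios, against 48.3% of all measured probe sets. Their median was 0.32 and their range ran from 0.09 to 0.70. They come from 4 genes, Fads2 and Elovl5 with 2 each. The values of Fads1, Elovl2 and 1437211_x_at lie within the noise of 1 probe set (0.31).

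The sequences before the start sites of Fads2 and Elovl5 are shown beside that of Elovl6, whose log2 ratio was near 0. Fads2 and Elovl5 are the genes of the polyunsaturated branch with a probe set past 1.5-fold, for each its dimmer one. The sequences are the 250 bases upstream of the start site in RefSeq's GRCm38.p6, written 5′ to 3′ on the gene's strand. Such windows were at hand for 5 of the 9 member genes: Fads2, Elovl1, Elovl2, Elovl5 and Elovl6. The set of windows held no entry for Scd1, Scd2, Fads1 and Elovl3, so these were not searched for motifs. Fads2 lies at chr19:10101504-10101753 (minus strand), Elovl5 at chr9:77917115-77917364 (plus strand) and Elovl6 at chr3:129532136-129532385 (plus strand). Capitals mark every match, on either strand, to 5 motifs.
Fads2: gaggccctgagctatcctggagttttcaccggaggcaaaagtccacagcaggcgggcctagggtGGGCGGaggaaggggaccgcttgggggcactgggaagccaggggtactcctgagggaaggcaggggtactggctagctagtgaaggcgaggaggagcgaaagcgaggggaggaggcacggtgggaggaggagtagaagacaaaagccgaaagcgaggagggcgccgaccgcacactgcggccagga
Elovl5: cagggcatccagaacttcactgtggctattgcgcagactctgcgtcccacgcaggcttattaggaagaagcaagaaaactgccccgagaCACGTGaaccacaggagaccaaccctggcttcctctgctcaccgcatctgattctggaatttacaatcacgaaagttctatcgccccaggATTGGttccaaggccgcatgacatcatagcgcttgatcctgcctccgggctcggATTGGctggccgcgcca
Elovl6: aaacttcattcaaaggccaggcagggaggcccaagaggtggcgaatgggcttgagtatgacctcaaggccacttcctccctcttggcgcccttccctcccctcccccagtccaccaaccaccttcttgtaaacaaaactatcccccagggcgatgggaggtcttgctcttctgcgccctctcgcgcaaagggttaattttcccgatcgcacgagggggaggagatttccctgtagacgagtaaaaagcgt

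The motifs searched were CCAAT (the NF-Y box), TCACCCCAC (a sterol regulatory element), GGGCGG (the GC box), TATAAA (the TATA box) and CACGTG (an E-box). The Elovl5 window held CCAAT on the opposite strand at positions −71 to −67 and −17 to −13, counted from the start site, and CACGTG at −161 to −156. The Fads2 window held GGGCGG at −186 to −181, and the Elovl6 window held 0 matches. No matches overlap in the windows shown. Matches also lie in windows not shown, of genes with log2 ratios near 0. Elovl1 (0.00 in its brightest probe set) had CCAAT and GGGCGG in the first of its 2 windows and GGGCGG in the second. Elovl2 (0.09) had GGGCGG in the second of its 2 windows. Among 32851 windows of the same length, 33.8% held CCAAT, 32.7% GGGCGG, 6.02% CACGTG, 12.4% TATAAA and 0.496% TCACCCCAC. A match describes letters and shows no binding, and these windows are no evidence for or against any factor.

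The elongases of saturated and monounsaturated chains differed little between the arrays. Elovl6, which extends palmitate to stearate and so feeds Scd1, read 82.4 on the orujo array and 85.4 on the olive array in its measured probe set, 1417404_at, a log2 ratio of −0.05. Its other probe set, 1417403_at, read 31.7 and 29.4, below the floor on both. Elovl6 thus lay within the noise of a probe set while Scd1 was higher in both of its own. Elovl3, which makes very long saturated and monounsaturated chains, read 424.1 and 400.7, a log2 ratio of 0.08.

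Elovl1, which makes the very long saturated chains of sphingolipids, had 3 measured probe sets. They read 268.4 and 267.9 (1425676_a_at), 95.4 and 112.0 (1455994_x_at), and 111.9 and 123.0 (1456530_x_at), for log2 ratios of 0.00, −0.23 and −0.14. All 3 carry suffixes of shared sequence, so no Elovl1 value remained without such probe sets. By class, the desaturases had positive log2 ratios in 6 of 6 measured probe sets, against 48.3% of all measured probe sets, and a median of 0.57. The elongases had 5 of 8 and a median of 0.04. The desaturases have 8 probe sets in all, and the count leaves out 1415824_at of Scd2, which read lower on the orujo array (17.4 against 43.6). The desaturase median rests on 4 genes, Scd1 and Fads2 with 2 measured probe sets each, and probe sets of a gene share its transcript.

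**Figure D2:**
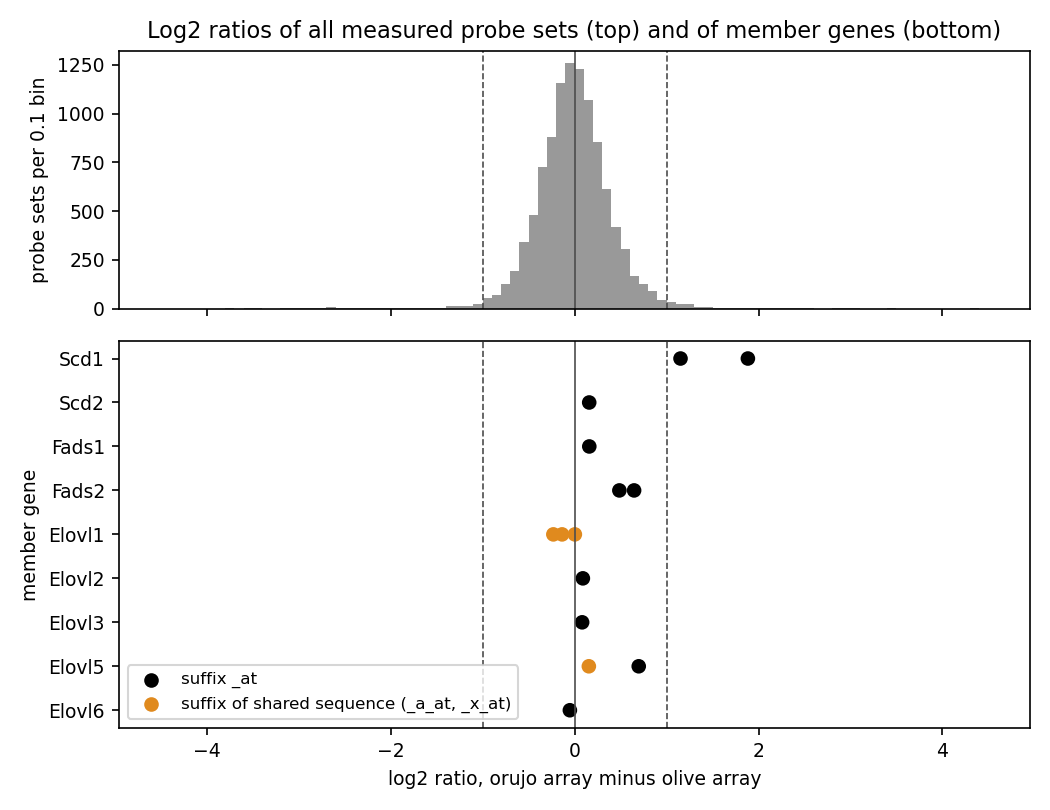
Log2 ratio (orujo array minus olive array) of all 10462 measured probe sets as a histogram (top) and of the 14 measured member probe sets, 1 point each, by gene (bottom), with 2-fold limits dashed. The Scd1 points at 1.15 and 1.88 lie past the limit, the Fads2 points and 1 Elovl5 point lie between 0.49 and 0.70, and the others lie between −0.23 and 0.16.

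The proteins that work with these enzymes were read from lists with 1 probe set per gene, the brightest. Of 6640 genes measured in this way, 1.33% had ratios of 2-fold or more upward and 0.979% of 2-fold or more downward, and the median log2 ratio was −0.02. The other steps of the elongation cycle gave a median of 0.02 over 6 measured genes of 6, with 0 past 2-fold in either direction. Hacd1, a dehydratase of the cycle, was highest at 0.46, and Hacd4 lowest at −0.19. Tecr, the reductase that closes the cycle, was at 0.10 and the ketoreductase gene Hsd17b12 at 0.04. Electron donors of desaturation had a median of −0.05 over 5 measured genes of 7 listed, with 0 past 2-fold. Cyb5a, the cytochrome b5 that passes electrons to the desaturases, was at −0.05 and its reductase gene Cyb5r3 at 0.11. Cyb5b, the form in the outer mitochondrial membrane, was lowest at −0.65, with −0.45 to −0.21 in its other probe sets, and Cyb5r4 was highest at 0.16. The partners of both reactions therefore held no value of the size seen for Scd1. Of 8 further desaturase and elongase genes listed, 1 was measured, the ceramide desaturase gene Degs1, with a log2 ratio of −0.03.

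Fatty acid synthesis genes upstream of Scd1 and Elovl6 gave log2 ratios with a median of −0.28 (6 measured genes of 11 listed), 2 of them positive, against 47.1% positive over all measured genes, and 0 past 2-fold. The median was −0.13 without probe sets of shared sequence and −0.15 with log2(value + floor). Fasn, fatty acid synthase, read 135.5 on the orujo array and 168.9 on the olive array, a log2 ratio of −0.32. Pklr, liver pyruvate kinase, was lowest at −0.71, though its other probe set gave −0.02. Me1, malic enzyme, which supplies NADPH, was at −0.63 and −0.48 in its 2 probe sets. Acss2, which makes acetyl-CoA from acetate, was highest at 0.12, with 0.40 in its other probe set. Acly, ATP citrate lyase, was at 0.09 in its brightest probe set and at −0.50 and −0.23 in the others. Acacb, an acetyl-CoA carboxylase, read 69.3 against 29.2 and so exceeded the floor only on the orujo array, at least 1.95-fold higher.

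Transcriptional regulators of these genes had a median of 0.14 over 14 measured genes of 17 listed. Of these, 9 were positive, against 47.1% of all measured genes, 5 were negative and 0 were past 2-fold. Srebf1, which encodes the SREBP-1 forms, was the lowest, with an intensity of 143.4 on the orujo array and 241.6 on the olive array and a log2 ratio of −0.75. Srebf2, which encodes the factor for sterol synthesis genes, was the highest at 0.71, with 0.23 in its other probe set. Insig2, which encodes a protein that retains SREBPs in the endoplasmic reticulum, read 1963.1 and 1354.2, a log2 ratio of 0.54, and its other probe sets gave 0.78 and 0.98. The liver X receptor gene Nr1h3 was at −0.05, the carbohydrate response factor gene Mlxipl at −0.06 and Ppara at 0.14. The array with the higher Scd1 signal had the lower Srebf1 signal, and Nr1h3 and Mlxipl lay within the noise of a probe set. The part of these factors in the Scd1 difference was not tested.

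Acyltransferases and related enzymes that place desaturated fatty acids in lipids had a median of 0.21 over 10 measured genes of 13 listed, with 1 past 2-fold upward and 0 downward. That gene was Lpin1, a phosphatidate phosphatase of triglyceride synthesis, with intensities of 1169.2 and 549.0, a 2.13-fold difference, and a log2 ratio of 0.87 in its other probe set. Lpcat3, which places polyunsaturated chains in phosphatidylcholine, was at 0.57. Lpcat1 was lowest at −0.37 and Dgat2, of the last step of triglyceride synthesis, was also at −0.37, with 0.02 in its other probe set.

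**Figure D3:**
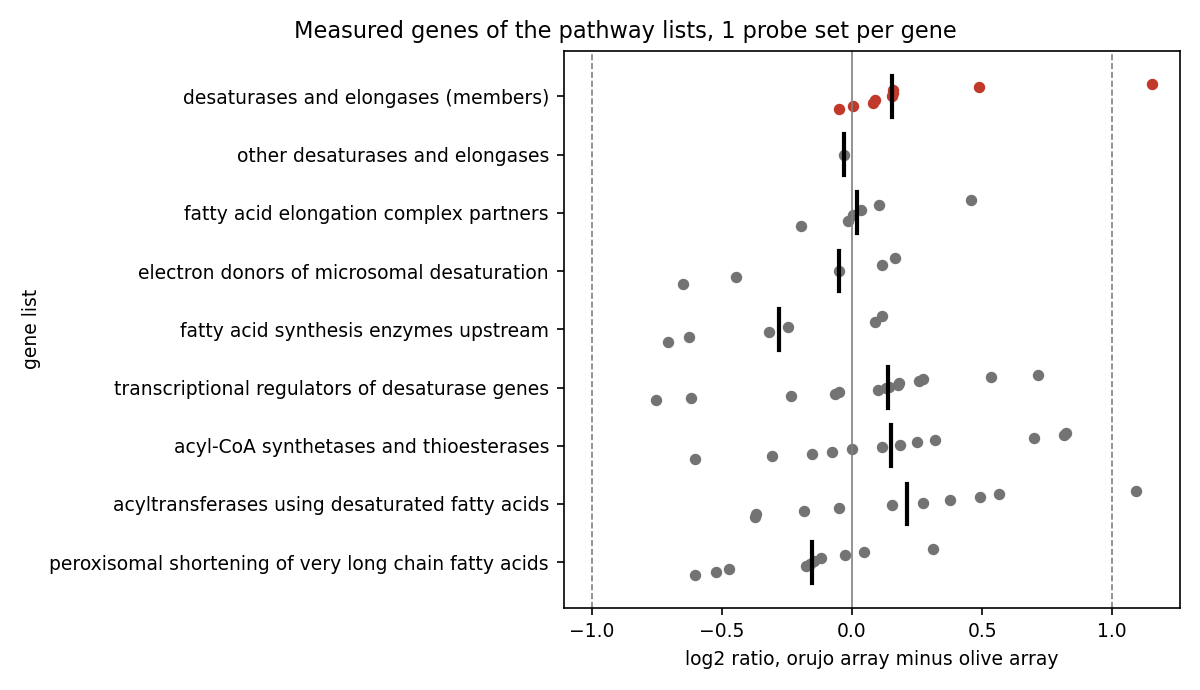
Log2 ratio (orujo array minus olive array) of each measured gene of the members and of 8 pathway lists, 1 brightest probe set and 1 point per gene, with the list median as a black bar and 2-fold limits dashed. Scd1 at 1.15 and Lpin1 at 1.09 are the points past 2-fold, and the upstream synthesis list has the lowest median at −0.28.

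Several signals that are no part of the pathway differed between the same arrays as Scd1. Of 15 exocrine pancreas markers listed, 12 had a probe set, with a summed intensity of 994.6 against 6426.6 and 0 markers at 0 on either array. On the orujo array 10 of 10 measured ones were lower by 2-fold or more, against 0.979% of all measured genes. They were Ctrb1, the lowest at −3.72, Cpa1, Cpb1, Cela2a, Cela3b, Clps, Prss2, Cel, Rnase1 and Cela1, the highest at −1.58. Among clock genes, with 11 of 16 measured, Nr1d1 was 4.39-fold and Dbp 2.51-fold lower and Nfil3 2.53-fold higher. Past 2-fold were thus 2 of 11 downward, against 0.979% of all measured genes, and 1 upward, against 1.33%. Of the array's controls for 18S rRNA, the 5′ one was at 2.54 on the log2 ratio scale, the middle one at 2.48 and the 3′ one at 0.34. Those for Gapdh lay between 0.09 and 0.15, and those for β-actin between −0.27 and 0.01. The part of these in the Scd1, Fads2 and Elovl5 values was not tested. Hepatocyte markers, the check of the labelled tissue, gave a median of −0.04 over 12 measured genes of 17 listed, from Cebpa at −0.39 to Arg1 at 0.49, with a summed intensity of 54687.8 against 53492.8. Adipocytes also express Scd1, Elovl3 and Elovl6. Their defining markers Adipoq and Lep read 6.8 and 3.2 on the orujo array and 2.3 and 2.5 on the olive array, below the floor on both, and 10 of 12 listed markers summed to 2081.4 against 2800.3, mostly Car3, which liver expresses too. Their measured log2 ratios ran from Car3 at −0.49, with −1.22 in its other probe set, to Fabp4 at 0.84. Macrophage markers had a median of 0.28 over 11 genes (Cd68 −0.36, C1qc 0.47) and endothelial markers of 0.12 over 6 (Kdr −0.30, Plvap 0.36), and stellate cell and fibroblast markers lay between Acta2 at −0.69 and Col3a1 at 0.72. By the brightest probe set, these 4 lists held 0 measured genes past 2-fold. Elovl3 is a male-biased gene in mouse liver. The Y-linked genes Eif2s3y and Uty were above the floor on both arrays (46.4 and 54.3, 57.6 and 72.9), while the Y-linked Kdm5d read 44.3 and 20.7 and exceeded it only on the orujo array. Of 6 female-biased genes with a probe set, 0 were measured, but Xist read 32.2 and 47.5 and exceeded the floor only on the olive array. These low values settle no sex for either array. Of 7 measured male-biased genes, Hsd3b5 was 2.18-fold lower and Cyp7b1 2.15-fold higher on the orujo array. The brightly read male-biased Cyp2d9 (2574.7 and 2817.2), Cyp4a12a (1490.8 and 1423.8) and Slco1a1 (1289.1 and 1142.1) differed little, with log2 ratios of −0.13, 0.07 and 0.17.

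**Figure D4:**
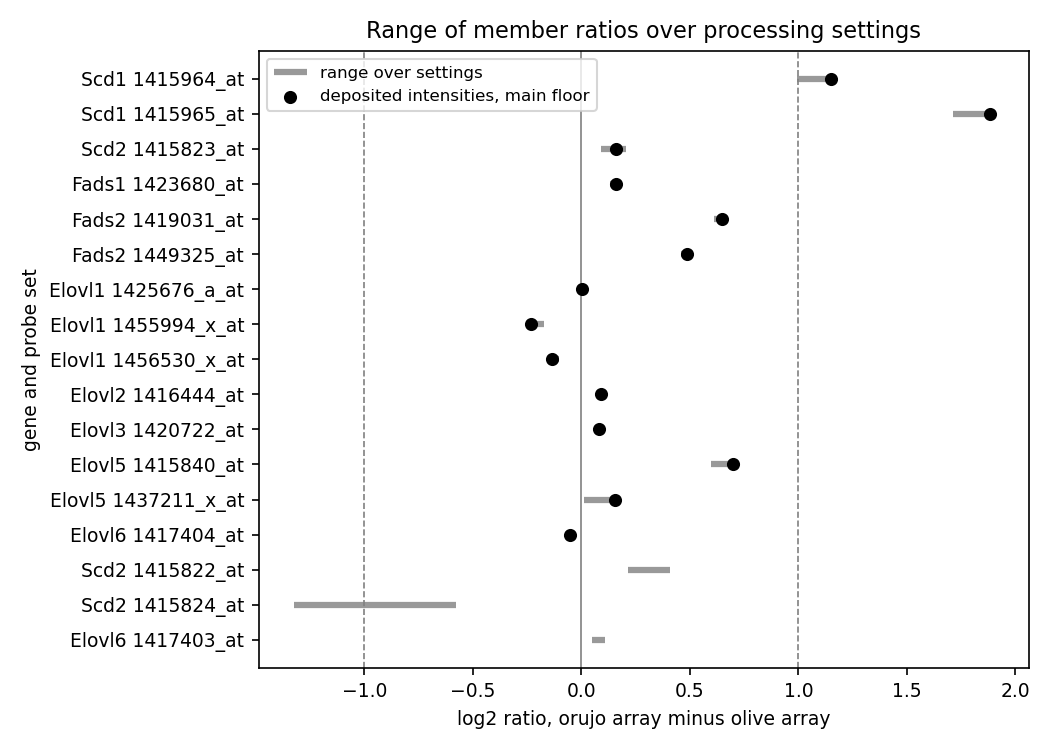
Log2 ratio (orujo array minus olive array) of each member probe set with the deposited intensities and the main floor (black points) and its range over 9 settings at most, the main one included (grey bars), with 2-fold limits dashed. The probe sets without a point were not above the main floor on both arrays; among those with one, the 2 Scd1 probe sets ranged from 0.99 to 1.17 and from 1.71 to 1.90.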

How the data were processed

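The authors deposited 1 intensity per probe set and array, linear and given to 1 decimal. How it was summarised, any detection calls and a genome build are not stated in the sources used here. Per the labels' protocols, about 8 µg of total RNA per array was labelled following the array maker's routine. The 2% trimmed mean came to 100.05 for each array, the mark of scaling to a common mean before deposit, and ratios hold only relative to it.

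The 64 control probe sets were set apart, and the deposited intensities were used without further scaling. For ratios, values under the floor, the 50th percentile of both arrays pooled, were raised to it before log2; intensities are printed as deposited. A probe set above the floor on 1 array has a bound against the floor. Of the other probe sets, 20380 had 1 symbol, 691 several and 1555 none, and only the first were named. In lists, a gene is represented by its brightest probe set (mean of log2 over both arrays). With 1 array per diet no test was possible. Calculations used Python 3.11.15, pandas 2.3.3, scipy 1.17.1 and statsmodels 0.14.6 and were tested on simulated data. Every member probe set is named. From each list described above or below, the extremes and any gene past 2-fold are named. Further genes were picked for their role or after their values were seen. A list of red blood cell markers had 1 measured gene of 6 listed, Alas2 at a log2 ratio of 0.20. Members and lists were chosen with earlier results of these data known. Alternatives were 4 other scalings, 3 other floors, probe sets without shared-sequence suffixes, a 1.5-fold limit and averaging the probe sets of a gene.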

Additional observations from a re-analysis of the deposited data

How the results depend on the processing

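No paired analysis was possible because each diet had 1 array. Values were called moved when they changed by more than the noise of 1 probe set (0.31 on the log2 scale), and counts when they changed by over 1.5 times. Of 176 values recomputed, 5 moved, but many of them could not move this far. Dividing by the trimmed mean and centring on the median shifted all measured ratios by only 0.003 and 0.015. A floor at the 25th or 75th percentile leaves the ratio of a probe set above it unchanged. Averaging cannot change a gene with 1 measured probe set. The small number of moves is therefore a weak check. The count of member probe sets at least 2-fold higher, 2 with the main setting, was 1 under quantile normalization and 4 at the 1.5-fold limit. The count at least 2-fold lower, 0 with the main setting, was 1 once the floor was lowered to the 25th percentile, from a Scd2 probe set. The log2 ratio of Scd1 was 1.52 as a mean over its probe sets, and that of Elovl5 was 0.70 without probe sets of shared sequence. The other member ratios and the 8 list medians moved less than this noise, which is a wide allowance for a median. The members' median lay between 0.09 and 0.32. Elovl1 changed sign with the mean over its probe sets (−0.12). Once it was raised to the 75th percentile, Scd2 and Elovl6 gave no value, and Elovl1 gave none without probe sets of shared sequence. Signal near the floor limits Scd2 and Elovl6, and 1 array per diet limits every value.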

Other observations

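Acyl-CoA synthetases and thioesterases, which activate and release fatty acids, gave log2 ratios with a median of 0.15 (12 measured genes of 16 listed), of which 8 were positive, against 47.1% of all measured genes, and 0 past 2-fold. The median was 0.10 under loess and 0.01 under quantile normalization, so no direction is given for the list. Acsl4, the acyl-CoA synthetase with a preference for arachidonate, was highest at 0.82, with intensities of 133.1 on the orujo array and 75.3 on the olive array and 0.35 in its other probe set. The thioesterase gene Acot3 was at 0.82, in a probe set with a suffix of shared sequence. Acot4 was at 0.70, with 0.31 in its other probe set. Slc27a4, a fatty acid transport protein gene, was lowest at −0.60.

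Genes of peroxisomal chain shortening, the last step toward docosahexaenoate, had a median of −0.15 over 10 measured genes of 14 listed. Of these, 2 were positive, against 47.1% of all measured genes, and 0 were past 2-fold. The median lay between −0.19 and −0.14 over the settings tried. Acox2, which encodes a branched-chain acyl-CoA oxidase, was lowest at −0.60, with intensities of 680.4 and 1032.3. Decr2 was at −0.52 and Acaa1b, a thiolase gene, at −0.47. Amacr, a racemase of branched-chain fatty acids, was highest at 0.31. These medians have no error between animals, and most single values lie near the noise of 1 probe set.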
